A study of Mus musculus with 8 samples.

Results

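The transcription factor gene Trp53 and 9 of its canonical target genes (Mdm2, Cdkn1a, Ccng1, Phlda3, Sesn2, Bax, Eda2r, Trp53inp1 and Zmat3) were followed in RNA sequencing libraries of mouse muscle stem cells. These 10 genes, of 57180 in the count table, were found by matching gene identifiers to mouse symbols. Trp53inp1 and Zmat3 had been selected on their fold change between the groups in these libraries, so their difference is described here without a test; the other 8 are listed as canonical members of the pathway. The cells were purified by flow cytometry and used fresh. The 4 control libraries (replicates 2, 5, 7 and 8) are labelled WT. The other 4 libraries (replicates 5, 6, 7 and 8) are titled RhoA het, carry the genotype label RhoA knockdown, and come from mice that the design text names SC-RhoAfl/+, that is, with a floxed and an intact allele of RhoA. The driver of recombination, the age of the mice and what the replicate numbers stand for are not given in the sources used here, and no label says whether a library comes from a single mouse, so p-values measure only the spread between these libraries.

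p53, the product of Trp53, is a transcription factor that is held at low levels by the ubiquitin ligase Mdm2 and accumulates after DNA damage and other stress. It then switches on genes that stop the cell cycle, repair DNA, adjust metabolism or start apoptosis, and it also switches on Mdm2, which closes a negative feedback loop. Because p53 is controlled mainly at the protein level, the RNA of its targets is commonly read as a measure of its activity. In muscle stem cells p53 is known for its part in survival as the cells leave quiescence.

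Libraries held between 19138763 and 25606342 fragments assigned to genes, so that even Zmat3, the lowest of the 10 genes, had at least 99 fragments per library. Rhoa, the targeted gene, had mean levels of 325 ± 46.3 and 265 ± 14.4 CPM in the control and RhoA het libraries (SD over 4 each; log2 fold change -0.29, adjusted p 1 in edgeR), where CPM is the count scaled to a common library total after TMM scaling of the library sizes. All 10 muscle stem cell markers checked were detected in every library, with a summed level of 7745 to 11689 TPM in control and 7562 to 13331 TPM in RhoA het; TPM is scaled per gene length. Markers of other cell types were detected too: 10 fibro-adipogenic markers, among them Cd34, which muscle stem cells also express, summed to 4207 to 9188 TPM in control and 6801 to 9033 TPM in RhoA het, 8 mural markers to 589 to 1369 and 734 to 2335 TPM, and 8 Schwann cell markers to 696 to 883 and 725 to 1060.4 TPM, with none at 0 in any library. The part of these cells in the levels that follow was not tested. Some libraries stood apart. The 2 libraries numbered 5 had the highest mean log2 CPM of cell cycle genes (4.09 in control and 3.56 in RhoA het, against 0.13 to 1.58 elsewhere) and the lowest summed TPM of 20 dissociation response genes (32556 and 29171, against 41637 to 56109). RhoA het replicate 6 had a summed level of 460.5 TPM over 10 endothelial markers, against 42.3 to 122 TPM in the other libraries, with none of these markers at 0 in any library. It was also the highest for 6 erythroid markers (1285 TPM, against 8.68 to 624 TPM) and in the mean log2 CPM of 10 immune markers (2.01, against -0.94 to -0.05), although not in their summed level (330.4 TPM, against 238 to 833 TPM). Myofibre markers, 12 in all, were highest in control replicate 5 (1056 TPM) and RhoA het replicate 6 (854 TPM), against 86 to 424 TPM. Y-linked transcripts (4 genes) had 14659 fragments in RhoA het replicate 6, 14358 in control replicate 2, and no more than 2 in each of the others. RhoA het replicate 6 and control replicate 2 are also the libraries whose number occurs once, so the comparison within same-numbered pairs contains neither.

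Stretches of promoter are printed for the genes whose window holds the letters of a p53 half-site. RefSeq promoter windows (build GRCm38.p6, from 250 bases before to 50 bases after the start of the gene) matched 8 of the 10 genes in 9 windows; Trp53inp1 and Zmat3 had no entry. Each window was searched on both strands for the p53 half-site decamer consensus, which reads the same on either strand. It was present in 1 window each of Trp53, Mdm2, Cdkn1a, Ccng1 and Bax, and in 8.4% of 32851 windows of the same length over all genes. The genes are known as p53 targets, so the half-site is not independent of their choice. In the stretches that follow, taken from before the start site and written 5′ to 3′ along the gene's strand, capitals mark the decamer.
Trp53: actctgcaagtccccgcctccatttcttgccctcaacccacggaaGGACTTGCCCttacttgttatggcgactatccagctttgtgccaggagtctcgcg
Mdm2: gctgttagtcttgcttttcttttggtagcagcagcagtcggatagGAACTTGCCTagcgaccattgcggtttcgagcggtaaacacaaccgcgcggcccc
Cdkn1a: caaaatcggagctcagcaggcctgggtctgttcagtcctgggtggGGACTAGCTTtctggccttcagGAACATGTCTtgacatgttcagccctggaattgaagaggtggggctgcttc
Ccng1: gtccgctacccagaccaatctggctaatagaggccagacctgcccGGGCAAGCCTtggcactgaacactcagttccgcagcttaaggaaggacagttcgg
Bax: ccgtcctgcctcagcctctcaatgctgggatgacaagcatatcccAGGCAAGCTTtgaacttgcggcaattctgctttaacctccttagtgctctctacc
They lie at chr11:69580239-69580338 (plus strand), chr10:117710890-117710989 (minus strand), chr17:29090861-29090978 (plus strand), chr11:40755417-40755516 (minus strand) and chr7:45467045-45467144 (minus strand), all in GRCm38.p6. Cdkn1a held 2 decamers, GGACTAGCTT and GAACATGTCT, which begin 73 and 51 bases before the start site of that window. The decamer was GGACTTGCCC in Trp53 and GAACTTGCCT in Mdm2, beginning 75 and 186 bases before the start. Ccng1 held GGGCAAGCCT at 185 bases and Bax AGGCAAGCTT at 201 bases before the start. A match describes the letters only, and binding was not measured in these libraries.

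Compared per length, the 10 genes covered a wide range. Cdkn1a, which encodes the cyclin-dependent kinase inhibitor p21, was by far the most abundant at 1122 ± 204 TPM (SD, n = 8 libraries), and its lowest library (843 TPM) lay above the highest library of any other of the 10 genes (339 TPM, Phlda3). Sesn2 (197 ± 39.1 TPM), Phlda3 (192 ± 70.6 TPM) and Trp53 (188 ± 26.7 TPM) came next, with differences smaller than their spread. The same held for neighbours in the order Mdm2 (84.8 ± 26.3 TPM), Bax (83.4 ± 27.1 TPM), Eda2r (65.4 ± 36.1 TPM), Ccng1 (49.6 ± 14 TPM). Trp53inp1 (10.3 ± 5.14 TPM) and Zmat3 (3.68 ± 2.43 TPM) stood at the bottom, and the level of Trp53inp1 was 2.06 to 5.41 times that of Zmat3 in the 8 libraries. Among the 8 unpicked genes, the highest library exceeded the lowest in CPM by between 1.38-fold (Trp53) and 3.95-fold (Eda2r).

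**Figure D1:**
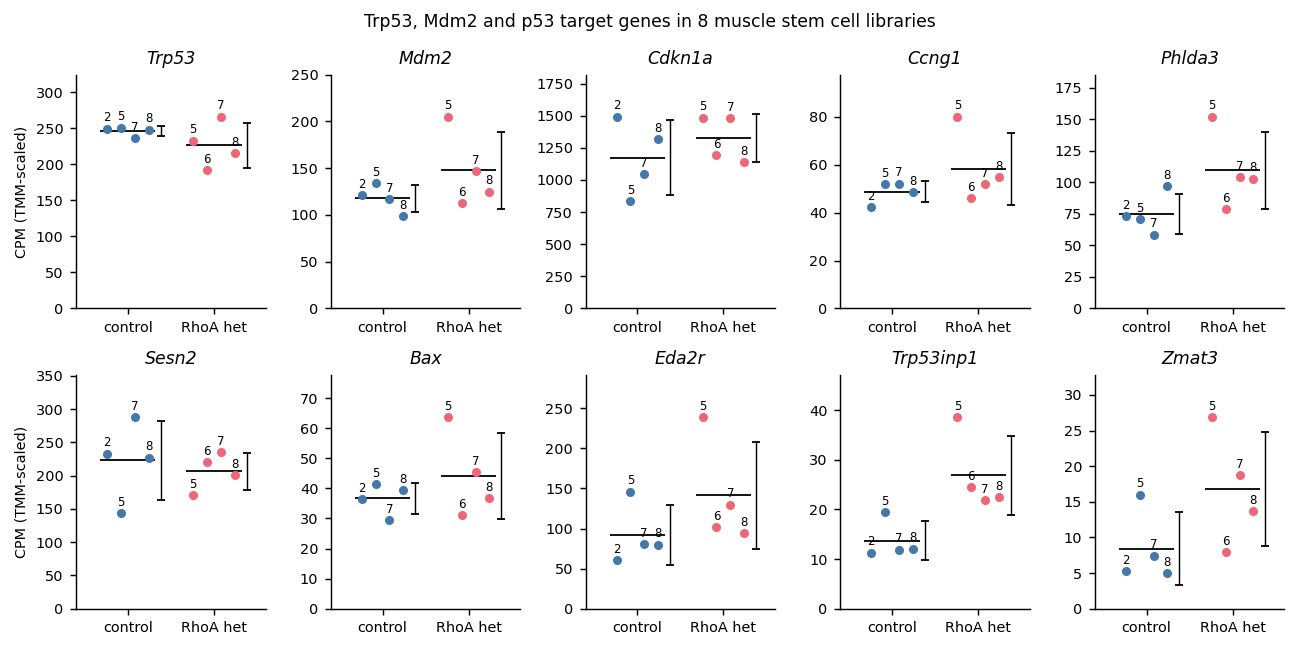
TMM-scaled CPM (y axis, from 0) of each of the 10 genes in the 4 control (blue) and 4 RhoA het (red) libraries; numbers are replicate numbers, lines are group means and bars to the side are the SD. For Trp53inp1 every red point lies above every blue point, and for the other 9 genes the groups overlap.

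Of the 8 unpicked genes, 6 were fitted higher in RhoA het and 2 lower, and their median was 0.26 on the log2 scale, where 49.9% of all genes tested were fitted higher. The median was 0.09 without RhoA het replicate 5, still with 6 higher and 2 lower, and 0.08 with both libraries numbered 5 left out, with 5 higher and 3 lower. None had RhoA het libraries all above the control libraries (1.02% of all genes) or all below them (0.792%), and none passed an adjusted p of 0.05 (0% of all genes, edgeR). In bulk libraries a change in the RNA of each cell and a change in which cells were collected cannot be told apart.

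Trp53 itself (ENSMUSG00000059552.14; mm39 chromosome 11, 69471185 to 69482699, plus strand) did not differ between the groups beyond the spread between libraries. It was at 249.6, 251, 236 and 248 CPM in the control libraries (replicates 2, 5, 7 and 8). For RhoA het replicates 5, 6, 7 and 8 the values were 233, 192, 266 and 215 CPM. The RhoA het libraries thus lay both above and below the narrow control range, and the log2 fold change was -0.12 (SE 0.124, 95% confidence interval -0.40 to 0.16, adjusted p 1 in edgeR's quasi-likelihood test). A gene on the opposite strand lies within its bounds without sharing exon bases.

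Mdm2 (ENSMUSG00000020184.16; mm39 chromosome 10, 117524780 to 117546663, minus strand), the ligase that marks p53 for destruction and itself a p53 target, was at 121, 134, 117 and 98.5 CPM in the control libraries in the same order. The level was 205, 113, 147 and 125 CPM in RhoA het replicates 5, 6, 7 and 8. One RhoA het library, replicate 5, stood far above all others, while replicates 6 and 8 lay inside the control range. A log2 fold change of 0.33 was fitted (SE 0.192, interval -0.10 to 0.76, adjusted p 1 in edgeR; two-sided exact permutation p 0.229, where the smallest possible with 4 against 4 libraries is 0.0286).

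Of the targets that act on the cell cycle, Cdkn1a (ENSMUSG00000023067.15; mm39 chromosome 17, 29309950 to 29319701, plus strand) was at 1492, 837, 1045 and 1319 CPM in control replicates 2, 5, 7 and 8. The RhoA het values were 1485, 1192, 1483 and 1138 CPM for replicates 5, 6, 7 and 8. Control libraries held both the highest and the lowest value, and the log2 fold change of 0.17 (SE 0.2, interval -0.27 to 0.62, adjusted p 1 in edgeR) was inside their spread. Cdkn1a shares 273 exon bases with a gene on the opposite strand that had 13 to 24 fragments per library, and the counting command set no strand option. Ccng1 (ENSMUSG00000020326.8; mm39 chromosome 11, 40639379 to 40646138), which encodes cyclin G1, a partner of protein phosphatase 2A that acts on Mdm2, was at 42.5, 51.9, 52.2 and 48.5 CPM in the control libraries. The RhoA het libraries had 80.1, 46.2, 52 and 55 CPM. All but RhoA het replicate 5 fell within a narrow band, and the log2 fold change was 0.26 (SE 0.175, adjusted p 1 in edgeR).

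Phlda3 and Sesn2 restrain growth signalling, the former by competing with the kinase Akt for membrane lipids and the latter as an inhibitor of mTORC1. Phlda3 (ENSMUSG00000041801.6; mm39 chromosome 1, 135693857 to 135696874) was at 73.3, 71.1, 58.6 and 97.1 CPM in control. RhoA het replicates 5, 6, 7 and 8 were at 152, 78.5, 104 and 103 CPM. The groups overlapped only in that control replicate 8 lay above RhoA het replicate 6. Its log2 fold change of 0.54 (SE 0.218, interval 0.05 to 1.03) was the one among the 8 unpicked genes with an unadjusted p under 0.05 in edgeR (0.0328; adjusted p 1; exact permutation p 0.0571), a level reached by 2.38% of all 15660 genes tested. Sesn2 (ENSMUSG00000028893.9; mm39 chromosome 4, 132219343 to 132237812) had its extremes in control, with 233, 144, 288 and 227 CPM there, against 171, 219.8, 235 and 200.2 CPM in RhoA het. Its fitted log2 fold change of -0.11 was small beside its error (SE 0.202, adjusted p 1 in edgeR). The sign turned without control replicate 7 (0.03) and on the TPM scale, where the median over all genes was higher too.

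Bax and Eda2r belong to the cell death arm. Bax (ENSMUSG00000003873.12; mm39 chromosome 7, 45111121 to 45116322), which perforates the outer mitochondrial membrane, was at 36.3, 41.5, 29.5 and 39.4 CPM in the control libraries, against 63.7, 31, 45.5 and 36.7 CPM for RhoA het. RhoA het replicate 5 was again the highest, and replicates 6 and 8 were inside the control range (log2 fold change 0.27, SE 0.219, adjusted p 1 in edgeR). Eda2r (ENSMUSG00000034457.11; mm39 chromosome X, 96377446 to 96420822) encodes a receptor of the tumour necrosis factor receptor family for the ligand ectodysplasin A2. It was at 60.5, 146, 80.4 and 79.9 CPM in the control libraries (replicates 2, 5, 7 and 8), while RhoA het replicates 5, 6, 7 and 8 had 239, 102, 129.7 and 94.4 CPM. Only control replicate 5 reached into the RhoA het range, and in each group replicate 5 was the highest. The fit gave a log2 fold change of 0.62 (SE 0.346, interval -0.15 to 1.40, adjusted p 1 in edgeR; exact permutation p 0.171).

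Of the 10 genes, Trp53inp1 and Zmat3 had the lowest levels and, as chosen, the largest fold changes. Trp53inp1 (ENSMUSG00000028211.12; mm39 chromosome 4, 11156431 to 11174379, plus strand) encodes a stress-induced protein that takes part in p53-dependent cell death and in autophagy. Control replicates 2, 5, 7 and 8 held 214, 420, 317 and 258 fragments, or 11.3, 19.5, 11.9 and 12.1 CPM. RhoA het replicates 5, 6, 7 and 8 held 822, 515, 487 and 437 fragments, or 38.6, 24.5, 21.8 and 22.5 CPM. Every RhoA het library lay above every control library, with control replicate 5 closest. The group means were 13.7 ± 3.89 and 26.8 ± 7.91 CPM (SD, n = 4 each), a fitted 1.96-fold difference (log2 0.97). Among all genes tested, 1.02% had higher RhoA het libraries without overlap; since Trp53inp1 was chosen for its difference, nothing is read from this.

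Zmat3 (ENSMUSG00000027663.14; mm39 chromosome 3, 32388941 to 32420163, minus strand) encodes a zinc finger RNA-binding protein known to regulate splicing and RNA stability downstream of p53. Control replicates 2, 5, 7 and 8 had 99, 345, 199 and 107 fragments of it, or 5.23, 16, 7.46 and 5.03 CPM. RhoA het replicates 5, 6, 7 and 8 held 572, 168, 418 and 266 fragments, or 26.9, 7.99, 18.7 and 13.7 CPM. The groups overlapped, because control replicate 5 lay above RhoA het replicates 6 and 8. The means of 8.43 ± 5.18 and 16.8 ± 8.01 CPM (SD, n = 4 each) gave a fitted 1.99-fold difference (log2 0.99). Neither Trp53inp1 nor Zmat3 overlaps another annotated gene in the count table.

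**Figure D2:**
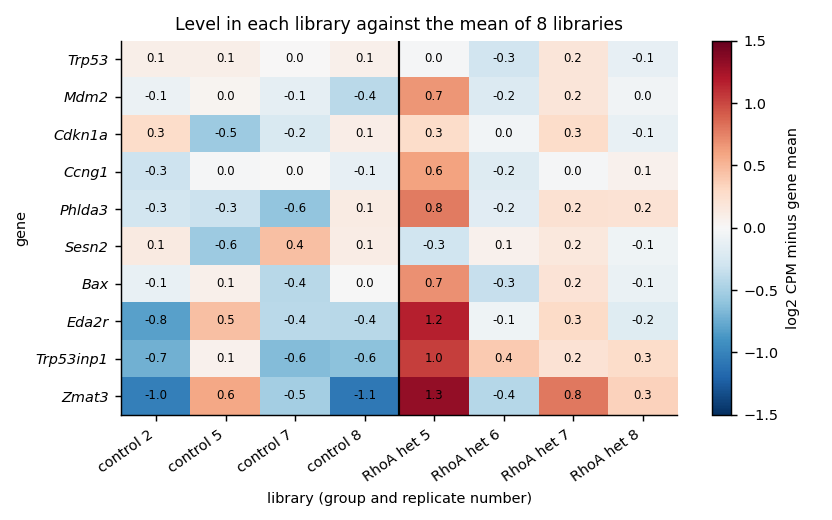
Log2 CPM of each gene (rows) in each library (columns) minus that gene's mean over the 8 libraries; red is above and blue below the mean, and the vertical line parts control from RhoA het. RhoA het replicate 5 is the darkest red column, with Zmat3 and Eda2r at the top of its scale, while Sesn2 is below its mean in both libraries numbered 5.

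Across libraries, the replicate number 5 was a common thread. RhoA het replicate 5 was the highest of all libraries for 7 of the 10 genes (Mdm2, Ccng1, Phlda3, Bax, Eda2r, Trp53inp1 and Zmat3), and control replicate 5 was the highest control library for 5 of these 7, Ccng1 and Phlda3 being the exceptions. Cdkn1a and Sesn2 went the other way in control, where replicate 5 was the lowest of all 8 libraries for both. The cell cycle genes were highest and the dissociation response genes lowest in the same libraries, as given above, and the part of either in the levels of the p53 targets was not tested. Without RhoA het replicate 5 the log2 fold changes were 0.12 for Mdm2, 0.06 for Ccng1, 0.04 for Bax, 0.24 for Eda2r and 0.34 for Phlda3. Those of Trp53inp1 and Zmat3 were then 0.74 and 0.67. Without control replicate 5 Zmat3 had 1.49, Trp53inp1 1.18 and Eda2r 0.93. With both libraries left out, a setting added after seeing the data, Eda2r was at 0.55 and Phlda3 at 0.30. Mdm2 (0.17), Bax (0.09), Ccng1 (0.08) and Cdkn1a (-0.03) then lay nearer to 0. Trp53inp1 and Zmat3 were at 0.95 and 1.17. Both were picked for their difference in these same libraries, so nothing is read from their values with libraries left out. Without RhoA het replicate 6, the library with the highest endothelial markers, Trp53inp1 and Zmat3 had log2 fold changes of 1.01 and 1.23.

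**Figure D3:**
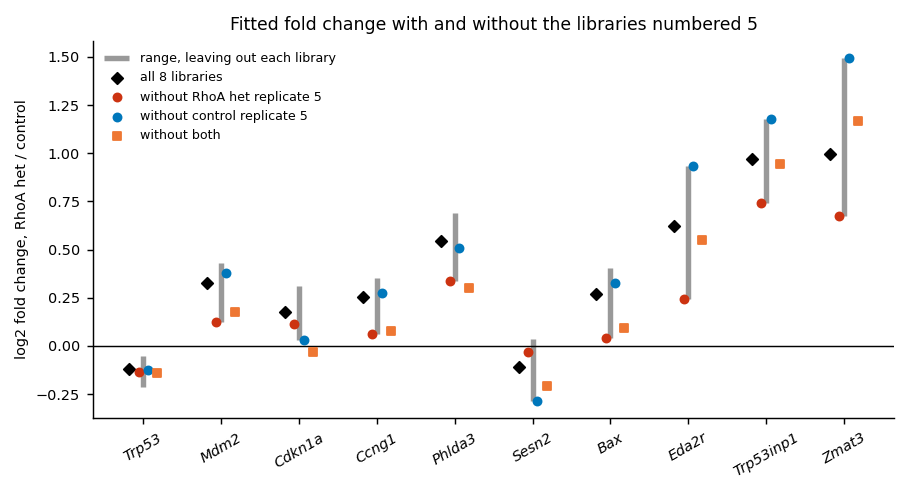
Log2 fold change of RhoA het over control (y axis) for each gene in all 8 libraries (black), without RhoA het replicate 5 (red), without control replicate 5 (blue) and without both (orange); grey bars span the values when each library is left out in turn. Mdm2, Bax and Ccng1 come close to 0 without RhoA het replicate 5, and the values of Trp53inp1 and Zmat3, chosen for their difference, are shown as a description.

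Replicate numbers 5, 7 and 8 occur in both groups, and the difference within each same-numbered pair was examined next. Trp53inp1 differed by 0.98, 0.87 and 0.89 log2 CPM in pairs 5, 7 and 8. Zmat3 differed by 0.74, 1.32 and 1.43. Of the 8 unpicked genes, 3 were higher in RhoA het in all 3 pairs, against 13.6% of all genes tested, and 0 were lower in all 3. These were Eda2r (0.71, 0.69 and 0.24), Phlda3 (1.10, 0.82 and 0.08) and Mdm2 (0.62, 0.33 and 0.34). Pair 8 had the smallest difference for Eda2r and Phlda3, and for Bax (0.62, 0.62 and -0.10) and Cdkn1a (0.83, 0.50 and -0.21) it had the opposite sign. Trp53 differed by -0.11, 0.17 and -0.21.

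**Figure D4:**
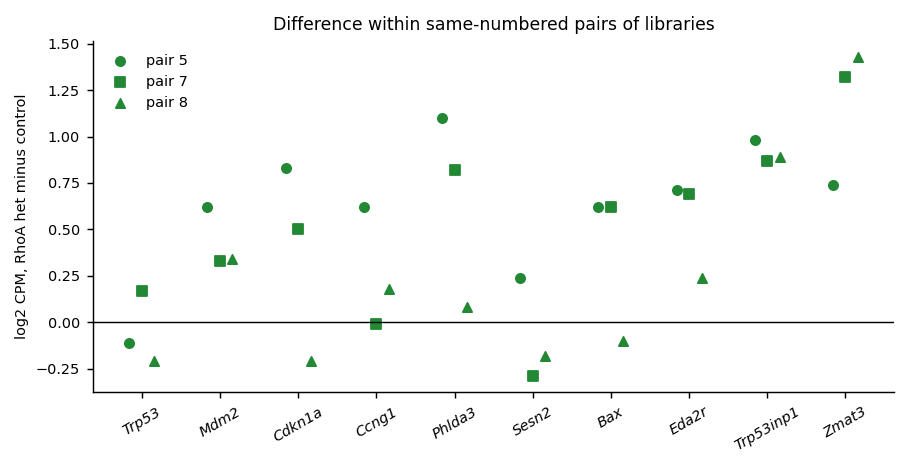
Difference in log2 CPM between the RhoA het and the control library of the same number (y axis) for each gene, with circles for pair 5, squares for pair 7 and triangles for pair 8. All 3 points lie above 0 for Mdm2, Phlda3, Eda2r, Trp53inp1 and Zmat3, and those of Trp53inp1 sit between 0.87 and 0.98.

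A replicate block was then added over the same 3 pairs, so that each library was compared with its own number. Eda2r then had a log2 fold change of 0.52 (SE 0.128, interval 0.24 to 0.81), Phlda3 of 0.65 (SE 0.173, interval 0.27 to 1.03) and Mdm2 of 0.41 (SE 0.118, interval 0.15 to 0.66). Their unadjusted p in edgeR were 0.00174, 0.00323 and 0.00525, and adjusted over all genes 0.416, 0.478 and 0.604. Bax had 0.36 (unadjusted p 0.0444, adjusted p 0.927 in edgeR). With the block, 5.26% of the 15714 genes tested had an unadjusted p under 0.05, and 0.0127% passed adjustment. Without the block 0% of the genes passed, and none of the 8 unpicked genes passed an adjusted threshold of 0.05 in either fit (edgeR). In the blocked fit Trp53inp1 and Zmat3 had log2 fold changes of 0.89 and 1.14.

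The 10 genes were then compared with each other and with all genes by their pattern over the 8 libraries (Pearson's r of log2 CPM). These are descriptions over 8 libraries that share the group difference and the high libraries numbered 5. Zmat3 ran closest to Eda2r (r 0.908), Mdm2 (0.87) and Trp53inp1 (0.849) among the 10 genes, and without the libraries numbered 5 these values were 0.846, 0.826 and 0.757. Trp53inp1 ran closest to Eda2r (0.873, and 0.82 without number 5). Ccng1, Bax and Phlda3 had r of 0.785, 0.728 and 0.61 with Zmat3, and 0.686, 0.43 and 0.51 without number 5. Cdkn1a (-0.0212), Trp53 (0.086) and Sesn2 (-0.598, and -0.241 without number 5) did not follow Zmat3. With Trp53inp1, Mdm2, Ccng1, Phlda3 and Bax had r of 0.764, 0.74, 0.719 and 0.643. Without number 5 these values were 0.453, 0.372, 0.526 and 0.164. Cdkn1a, Trp53 and Sesn2 had r of 0.117, -0.357 and -0.582 with Trp53inp1. Among 9746 genes with a mean of at least 5 CPM, those most like Trp53inp1 were Sbf2 (0.968), Eif4g3 (0.923), Fcho2 (0.92), Znrf3 (0.917) and Mid2 (0.917). Those most like Zmat3 were Fat1 (0.964), Mfap3 (0.959), Kmt2d (0.957), Exoc4 (0.953) and Ramac (0.944). Eda2r ranked 22 by likeness to Trp53inp1 and 24 by likeness to Zmat3. Mdm2, Ccng1, Phlda3 and Bax ranked 156, 196, 243 and 484 for Trp53inp1, and 60, 268, 1117 and 472 for Zmat3. For Trp53, Cdkn1a and Sesn2 the ranks were 7563, 3906 and 8879, and 4474, 5150 and 8647. Zmat3 ranked 44 for Trp53inp1, and Trp53inp1 ranked 89 for Zmat3. Both were picked for their group difference, which their shared r carries, so nothing is read from it.

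The wider p53 network was described by 3 lists. Of 25 p53 regulators, genes that modify, bind or degrade p53 or Mdm2, 24 were tested; Trp73, a p53 paralogue, was too low. None passed the adjusted threshold, against 0% of all genes. Of the 24, 16 were fitted higher and 8 lower, where 49.9% of all genes tested were fitted higher. The median log2 fold change was 0.049, against -0.001 over all genes tested. The most abundant regulators were Npm1 (946 TPM over 8 libraries), Rpl5 (716 TPM), Rpl11 (446 TPM) and Trp53bp2 (110.2 TPM). The first 3 encode nucleophosmin and ribosomal proteins that can bind Mdm2, and had log2 fold changes of -0.21, -0.24 and -0.28. Trp53bp2, which encodes a p53-binding protein that favours apoptosis, had 0.10 (adjusted p 1 in edgeR for all 4).

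Of 66 further p53 targets 64 were tested, and Ptprv and Rprm were too low. None passed the adjusted threshold, against 0% of all genes. Of the 64, 40 were fitted higher and 24 lower in RhoA het, where 49.9% of all genes tested were fitted higher. The median was 0.046, against -0.001 over all genes tested, with a range from -0.49 to 0.83. The most abundant were the tetraspanin gene Cd82 (2800.1 TPM, log2 fold change -0.17), the antiproliferative gene Btg2 (1736 TPM, -0.08), the polyamine acetyltransferase gene Sat1 (967 TPM, 0.18) and Sertad1 (786 TPM, -0.35). Btg2, like the dissociation response genes, was lowest in the libraries numbered 5 (943 TPM in control and 796 TPM in RhoA het, against 1326 to 2951 TPM elsewhere). The groups did not overlap for 1 of the 64 genes, against 1.81% of all genes. This was Tnfrsf10b, a death receptor gene, with 5.55, 11.2, 12.4 and 13.1 CPM in the control libraries (replicates 2, 5, 7 and 8), against 15.2, 14.8, 16 and 14.9 CPM for RhoA het replicates 5, 6, 7 and 8. Control replicate 2 lay far below the rest, and the log2 fold change was 0.53 (SE 0.247, adjusted p 1 in edgeR). In the pairs, 16 of the 64 were higher in RhoA het in all 3, against 13.6% of all genes, and 4 were lower in all 3, against 12.5%. Unadjusted p fell under 0.05 for 3 of them in edgeR, named here after their values were seen: Pmaip1 (0.41), which encodes the apoptosis promoter Noxa, Ak1 (0.68) and Vcan (0.83), each with an adjusted p of 1; over all genes tested 2.38% had an unadjusted p under 0.05.

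Cell cycle genes that p53 lowers through p21 made up the last list, with 22 of 23 tested. None passed the adjusted threshold, against 0% of all genes. Of the 22, 4 were fitted higher and 18 lower, where 49.9% of all genes tested were fitted higher. The median log2 fold change was -0.209, against -0.001 over all genes tested. The value followed the libraries numbered 5: without control replicate 5 the median was 2.31 (22 of 22 tested higher), without RhoA het replicate 5 it was -1.25 (22 of 22 lower), and with both left out it was 0.714. The sign also turned with all 8 libraries kept, to 0.487 in limma-voom with quality weights (19 higher, 3 lower) and to 0.207 and 0.482 in limma on log2(TPM + 1) and log2(TPM + 0.1) (18 higher, 4 lower in both), so no direction is given for this list. Rrm2, a subunit of ribonucleotide reductase, had 74.6 TPM in control replicate 5 and 56.8 TPM in RhoA het replicate 5, against 12.4 to 57 TPM elsewhere. Ccnb2, which encodes a mitotic cyclin, had 95.3 and 53.6 TPM in the libraries numbered 5, against 1.96 to 7.36 TPM elsewhere, and Cdc20, an activator of the anaphase-promoting complex, 53 and 32.3 TPM, against 4.82 to 9.55 TPM. For the replication licensing gene Mcm3 the values were 37.3 and 24.2 TPM, against 10.5 to 17.8 TPM. Cdkn1a had its lowest level, 837 CPM, in control replicate 5, and one of its highest, 1485 CPM, in RhoA het replicate 5.

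**Figure D5:**
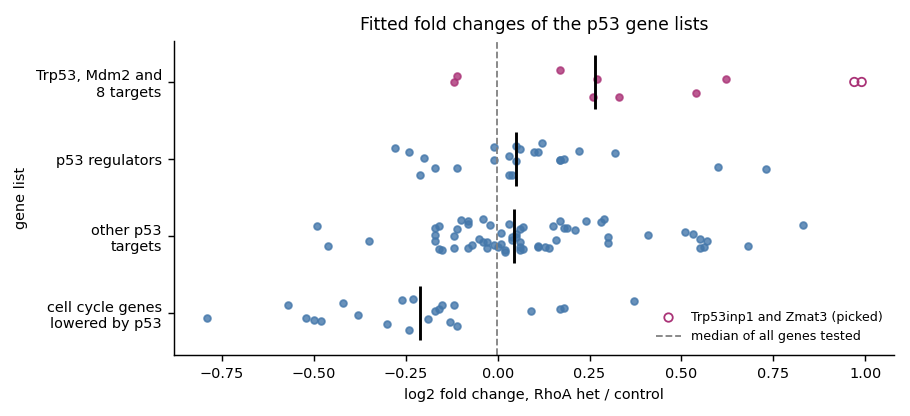
Fitted log2 fold change of RhoA het over control (x axis) for each tested gene of 4 gene lists (rows); black bars are medians, for the top row over its 8 unpicked genes, and open circles are Trp53inp1 and Zmat3. The medians are 0.26 for the 8 unpicked genes, 0.049 for regulators, 0.046 for further targets and -0.209 for cell cycle genes (a sign that turns in limma and with libraries left out), beside -0.001 over all genes (dashed line).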

How the data were processed

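RNA from 8 libraries was measured. The labels' protocols give a Trizol extraction of total RNA; libraries were made by a template switching kit for small inputs. The deposited counts are whole fragments per gene; per the file headers the program was featureCounts 1.6.4, run on paired reads against the exons of GENCODE mouse release 34 on mm39 with STAR alignments as input, with no strand option and no option to count multi-mapping or multi-gene reads. Of 10 alignment files listed in that command, 8 have a column; the others were not analysed here. The authors' deposited TPM values equal counts per gene length, scaled per library. FastQC, cutadapt and DESeq2 are named in the submitters' processing notes. Symbols came from a GENCODE table and matched 51884 of 57180 identifiers.

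Counts were tested with edgeR 4.0.16 (R 4.3.3): filterByExpr left 15660 genes, sizes were scaled by TMM, and the quasi-likelihood F test compared the groups with Benjamini-Hochberg adjustment over all genes tested and a threshold of 0.05. The same code was tested on simulated data. Log2 CPM used a prior count of 2; exact permutation tests ran over 70 assignments. Libraries of a group differed by at least 43 in chi-square per degree of freedom, so none was entered again within its group under another number. Libraries of different groups were not compared in this way. Same-numbered libraries deviated together from their group means, with correlations of 0.584, 0.335 and 0.502 for numbers 5, 7 and 8. The mean between different numbers was -0.236. Deviations from a group mean cancel out within the group, which ties this value to the other correlations, so nothing is read from it. The numbers, shared in the titles, entered a further fit as a replicate block. Alternatives covered DESeq2 1.42.0, limma 3.58.1 (voom and log2 TPM), other scalings and filters, and leaving out libraries.

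The genes and lists were chosen with earlier results of these data known. Genes named from a list were its 4 most abundant by mean TPM, any past the threshold and up to 4 whose groups did not overlap; genes of like pattern were the 5 with the highest r and a mean of at least 5 CPM.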

Additional observations from a re-analysis of the deposited data

Results flagged for a closer look

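In groups of 4 libraries, a library was marked when its gap to the nearest other, divided by the range of the group, passed Dixon's 95% critical value for 4 values. Of 26 groups examined 2 were marked, where chance gives about 1.3. Control replicate 5 stood above the other control libraries for Trp53inp1, with a log2 CPM of 4.29 against 3.51 to 3.61 (ratio 0.873). The same library stood apart in the mean log2 CPM of the cell cycle genes lowered by p53, at 4.09 against 0.13 to 0.73 (ratio 0.848).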

How the results depend on the processing

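The count of changed genes was 0 in edgeR over all 8 libraries (372 at an unadjusted p under 0.05) and 0 in DESeq2 (344 unadjusted). With the replicate block over the pairs 5, 7 and 8 it was 2, neither of them among the 8 unpicked genes, and the block changed no other call; the cause was not tested. Over the alternatives the log2 fold change was 0.74 to 1.18 for Trp53inp1 and 0.67 to 1.49 for Zmat3; both were chosen for their difference in these libraries, so nothing is read from this. Sesn2 turned sign in limma on log2(TPM + 1) and log2(TPM + 0.1), at 0.003 and 0.0031. In these fits the median of all genes was 0.068 and 0.086, against -0.001 in edgeR over all 8 libraries. Sesn2 ranged from -0.2856 to 0.0343 when each library was left out, with the turned sign without control replicate 7. Cdkn1a turned to -0.0318 with both libraries numbered 5 left out. The median of the cell cycle list ranged from -1.25 to 2.31 over the libraries left out, with a positive sign without control replicate 5 and RhoA het replicate 7 (0.018), and was 0.487 in limma-voom and 0.207 and 0.482 in limma on log2(TPM + 1) and log2(TPM + 0.1). For the 8 unpicked genes the range of the median over the libraries left out was 0.088 to 0.379, for the regulators 0.024 to 0.077 and for the further targets 0.006 to 0.094. Groups of 4 limit what these data resolve: for Eda2r the interval ran from -0.15 to 1.40.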
